A study of Mus musculus with 4 samples.

Results

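Naive and resistant melanomas were compared inside matched myeloid cell types, between the sample of the tumour naive to targeted therapy (NTT) and the sample of the tumour resistant to it (RTT). Members were all cells that the deposited annotation assigns to NTT or RTT and names Monocyte_1, Infl_Mono, cDC2 or Neutro, the types with enough cells on both sides. These were 7823 of 33368 cells. Monocyte_1 held 4977 cells in NTT and 384 in RTT, Infl_Mono 1616 and 138, cDC2 282 and 174, and Neutro 106 and 146. The numbers of cells are given for precision only and were not compared.

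Single-cell RNA sequencing was performed on live CD45+ cells of tumours grown in Rag2-/- mice, which have no T or B cells of their own. All tumours came from YUMM1.7 cells, a Braf-mutant mouse melanoma line, that express ovalbumin (OVA), and all mice received OT-1 T cells, which recognise an OVA peptide, on day 7, with isolation on day 10, 72 h later. NTT cells had never met targeted therapy, and RTT cells were made resistant to it and, by the study's methods, kept in a BRAF inhibitor during culture. The series also holds RTT_ROSA26, a resistant line with a control guide, and RTT_PTGS12KO, a resistant line without Ptgs1 and Ptgs2, and these samples are used only to place values. Each group is a cultured line in 1 sample. The labels give 1 tumour a condition while the study's figure legends describe pooled tumours, and which holds here was not settled. No difference therefore has a replicate check, no test was made, and a difference between NTT and RTT cannot be told apart from a difference between any pair of tumours or lines.

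UMIs (unique transcript tags) were summed over the cells of 1 sample and 1 type and divided by the total, which gives CPM (UMIs per 1e6 UMIs of the sum). Intervals after CPM values are exact 95% Poisson intervals, and they cover counting error only. Differences are log2 ratios of CPM + 5, NTT over RTT, so low genes are understated, and a gene was called higher or lower in NTT at 2-fold or more (1 on the log2 scale). Intervals after a difference between types are approximate 95% intervals for counting error only. They use ratios with a small count added to the UMIs in place of the 5 CPM, so they need not centre on the stated value. Sums of NTT and RTT ranged from 1163582 UMIs (Neutro, NTT) to 39632698 (Monocyte_1, NTT). RTT_ROSA26 was small in the monocyte types, with 54 cells and 412344 UMIs in Monocyte_1 and 86 cells and 574982 UMIs in Infl_Mono. Values against it rest on few cells there. Median UMIs a cell in NTT and RTT were 7273 and 8718.5 in Monocyte_1, 6787 and 7452 in Infl_Mono, 7236 and 11325 in cDC2, and 9260.5 and 7381 in Neutro. The median mitochondrial share was higher in RTT in each type, at 2.37% against 1.44%, 2.57% against 1.42%, 2.29% against 1.65% and 3.13% against 1.17% in the same order. All samples were pooled before loading, and 98 barcode sequences occurred in 2 loads but 0 were shared within a load.

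The names were checked against marker lists. The 8 neutrophil markers summed to 56355 CPM in NTT and 56568 in RTT in Neutro, and the 8 cDC2 markers to 1560 and 1248 in cDC2. The sum of the 8 monocyte markers was lower in RTT than in NTT in each type, at 7413 and 3320 CPM in Monocyte_1, 12327 and 7186 in Infl_Mono, 5300 and 951 in cDC2 and 5568 and 3238 in Neutro. Not every member followed the sum. Chil3 was higher in RTT in Monocyte_1 and Neutro (log2 ratios of -2.43 and -1.79), and so was F13a1 in Neutro. The sum of the 8 macrophage markers was higher in RTT, from 5410 to 11562, from 4713 to 25290, from 1407 to 2627 and from 4926 to 18504. In RTT the macrophage sum exceeded the monocyte sum in both monocyte types, against their names, and in Infl_Mono 17616 CPM of it was Apoe. In cDC2 the monocyte sum exceeded the cDC2 sum in NTT and the macrophage sum exceeded it in RTT, and 37 of 282 NTT cells and 93 of 174 RTT cells did not hold more marker UMIs of another class than of their own. The sums thus go against the cDC2 name too, although the 8 cDC2 markers were above their levels in the other types. The sums thus moved with the comparison in each type, and their part in the results was not tested. The median cell held 35.4 macrophage-marker UMIs per 10000 in NTT and 84.6 in RTT in Monocyte_1 and 18.1 and 97.5 in Infl_Mono, but 3.58 and 4.29 in cDC2 and 18.0 and 14.7 in Neutro. NK cells, which should lack most of these transcripts, held 524 CPM of Apoe in NTT (709 cells) and 9303 in RTT (13 cells).

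Monocytes enter tumours from blood and become macrophages or antigen-presenting cells there, cDC2s are dendritic cells that present antigen on MHC class II, and neutrophils are short-lived granulocytes. Interferons act on all of them: type I interferons switch on antiviral genes through a DNA element called the ISRE, and interferon-gamma from T and NK cells works through GAS elements and raises MHC genes. Metallothioneins, which bind zinc and copper, are driven by the metal-response element (MRE). Infl_Mono was led by interferon-stimulated genes (Ifit3, Ifit1 and Ifit2) and Monocyte_1 by Ly6i, Nos2, Cfb, Ly6c2 and Ccl5 among others. Whether the clustering set the levels of such genes inside these types was not tested.

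The promoters of 3 genes that were higher in NTT in each type and of the lower gene Mt2 are shown because the motifs above occur in them. Each runs 5′ to 3′ along the gene from 250 bases before to 50 bases after the RefSeq start (GRCm38.p6). Capitals mark matches on either strand to the ISRE core GAAANNGAA in Gbp2b, Ifi205 and Cd274, and to the MRE core TGCGCNC or TGCACNC in Mt2. Gbp2b lies at chr3:142594597-142594896 (+), Ifi205 at chr1:174031706-174032005 (-), Cd274 at chr19:29367188-29367487 (+) and Mt2 at chr8:94172368-94172667 (+).
Gbp2b: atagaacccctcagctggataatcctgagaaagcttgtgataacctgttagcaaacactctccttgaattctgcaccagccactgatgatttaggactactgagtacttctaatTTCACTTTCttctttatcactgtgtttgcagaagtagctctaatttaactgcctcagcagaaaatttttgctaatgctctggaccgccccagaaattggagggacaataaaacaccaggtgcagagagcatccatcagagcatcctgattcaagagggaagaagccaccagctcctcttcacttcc
Ifi205: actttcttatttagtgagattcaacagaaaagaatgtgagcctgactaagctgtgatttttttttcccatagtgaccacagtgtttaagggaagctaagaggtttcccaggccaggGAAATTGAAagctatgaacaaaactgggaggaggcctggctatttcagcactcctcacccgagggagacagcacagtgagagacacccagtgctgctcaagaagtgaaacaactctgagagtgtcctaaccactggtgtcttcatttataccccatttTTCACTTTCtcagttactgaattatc
Cd274: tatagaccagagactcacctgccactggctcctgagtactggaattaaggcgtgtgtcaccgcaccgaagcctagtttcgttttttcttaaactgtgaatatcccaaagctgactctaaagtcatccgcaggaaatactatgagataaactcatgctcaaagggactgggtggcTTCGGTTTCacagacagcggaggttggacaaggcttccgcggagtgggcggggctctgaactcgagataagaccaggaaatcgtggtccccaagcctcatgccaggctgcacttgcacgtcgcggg
Mt2: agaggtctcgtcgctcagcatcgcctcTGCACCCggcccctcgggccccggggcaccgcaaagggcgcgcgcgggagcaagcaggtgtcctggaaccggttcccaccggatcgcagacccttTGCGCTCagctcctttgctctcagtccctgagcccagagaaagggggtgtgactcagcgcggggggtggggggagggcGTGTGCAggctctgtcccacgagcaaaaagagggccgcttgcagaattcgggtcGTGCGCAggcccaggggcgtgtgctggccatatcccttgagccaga
Of the 19 genes higher in NTT in all 4 types, 14 had a promoter in the table and 7 of these (50%) held the ISRE core, which occurs in 8.57% of all 27025 promoters and in 10.8% of the 1601 promoters of genes measured in every type. The GAS motif TTCNNNGAA was in 1 of the 14 (7.14%), against 8.47% of all promoters. Of the 11 genes lower in NTT in all types, 9 had a promoter and 3 (33.3%) held the MRE core, against 25.6% of all promoters and 34.5% of those of measured genes, and 2 (22.2%) held the ISRE core. The MRE matches in that group were in Mt2, Mt1 and Cd81. The 300-base window of Irf7 held none of these motifs, and a match is a description of letters only.

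Most genes differed by less than 2-fold, and the share past it was lowest in Monocyte_1. Genes counted as measured when the higher sample reached 50 CPM and both samples together held at least 20 UMIs. Of 2555 such genes, 76 (2.97%) were higher and 24 (0.939%) lower in NTT in Monocyte_1. In Infl_Mono 93 of 2668 (3.49%) were higher and 93 (3.49%) lower, in cDC2 165 of 2694 (6.12%) and 122 (4.53%), and in Neutro 145 of 2570 (5.64%) and 84 (3.27%). A gene that reached 50 CPM in 1 sample alone had to differ if it was low in the other. Among the genes at 50 CPM in both samples, 38 higher and 16 lower of 2212 passed 2-fold in Monocyte_1, 53 and 37 of 2222 in Infl_Mono, 78 and 37 of 2109 in cDC2 and 72 and 41 of 2040 in Neutro. The median log2 ratio of all genes was between 0.01 and 0.04 in each type.

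**Figure D1:**
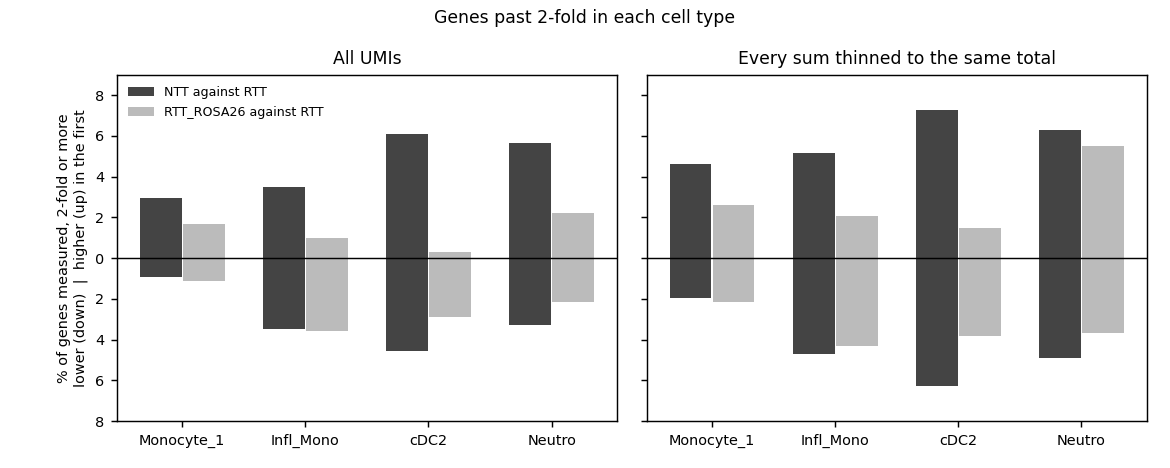
Bars give the percentage of measured genes that were at least 2-fold higher (upwards) or lower (downwards) in NTT than in RTT (dark) or in RTT_ROSA26 than in RTT (light), by cell type. On the left all UMIs were used and on the right every sum was thinned to 412344 UMIs; in cDC2 the thinned shares were 7.29% and 6.29% against 1.47% and 3.82%.

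The spread between resistant tumours that both keep Ptgs1 and Ptgs2 gave the scale for these shares. Comparing RTT_ROSA26 with RTT, 1.7% of genes were higher and 1.13% lower in Monocyte_1, 1.01% and 3.57% in Infl_Mono, 0.311% and 2.87% in cDC2, and 2.21% and 2.13% in Neutro. RTT_ROSA26 held 54 cells in Monocyte_1 and 86 in Infl_Mono, so its shares rest on few cells there. At an equal 412344 UMIs per sum, the shares higher in NTT were 4.62%, 5.15%, 7.29% and 6.31%, and those higher in RTT_ROSA26 were 2.61%, 2.07%, 1.47% and 5.52%. The shares for the naive tumour were above those for the second resistant tumour in cDC2 in both directions. In Neutro at equal depth the gap was small. In Monocyte_1 and Infl_Mono the lower shares were close, at 1.93% against 2.14% and 4.72% against 4.32%. Both comparisons use the same RTT sample.

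Of the 2012 genes measured in every type, 19 (0.944%) were higher in NTT in all 4 types and 11 (0.547%) were lower in all 4. Among genes called higher in any type, 157 of 284 were called in 1 type, 78 in 2 and 30 in 3. Among those called lower, 161 of 226 were called in 1 type, 44 in 2 and 10 in 3. Of the genes called in 1 type, 28 higher and 81 lower ones were measured in no other type, 63 of the latter in cDC2, so they could not have been called elsewhere. The 19 genes made up 25.0% of the higher calls of Monocyte_1, 20.4% of Infl_Mono, 11.5% of cDC2 and 13.1% of Neutro. The 11 genes made up 45.8%, 11.8%, 9.02% and 13.1% of the lower calls. All types come from the same 2 samples, so their sharing a direction is not replication.

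**Figure D2:**
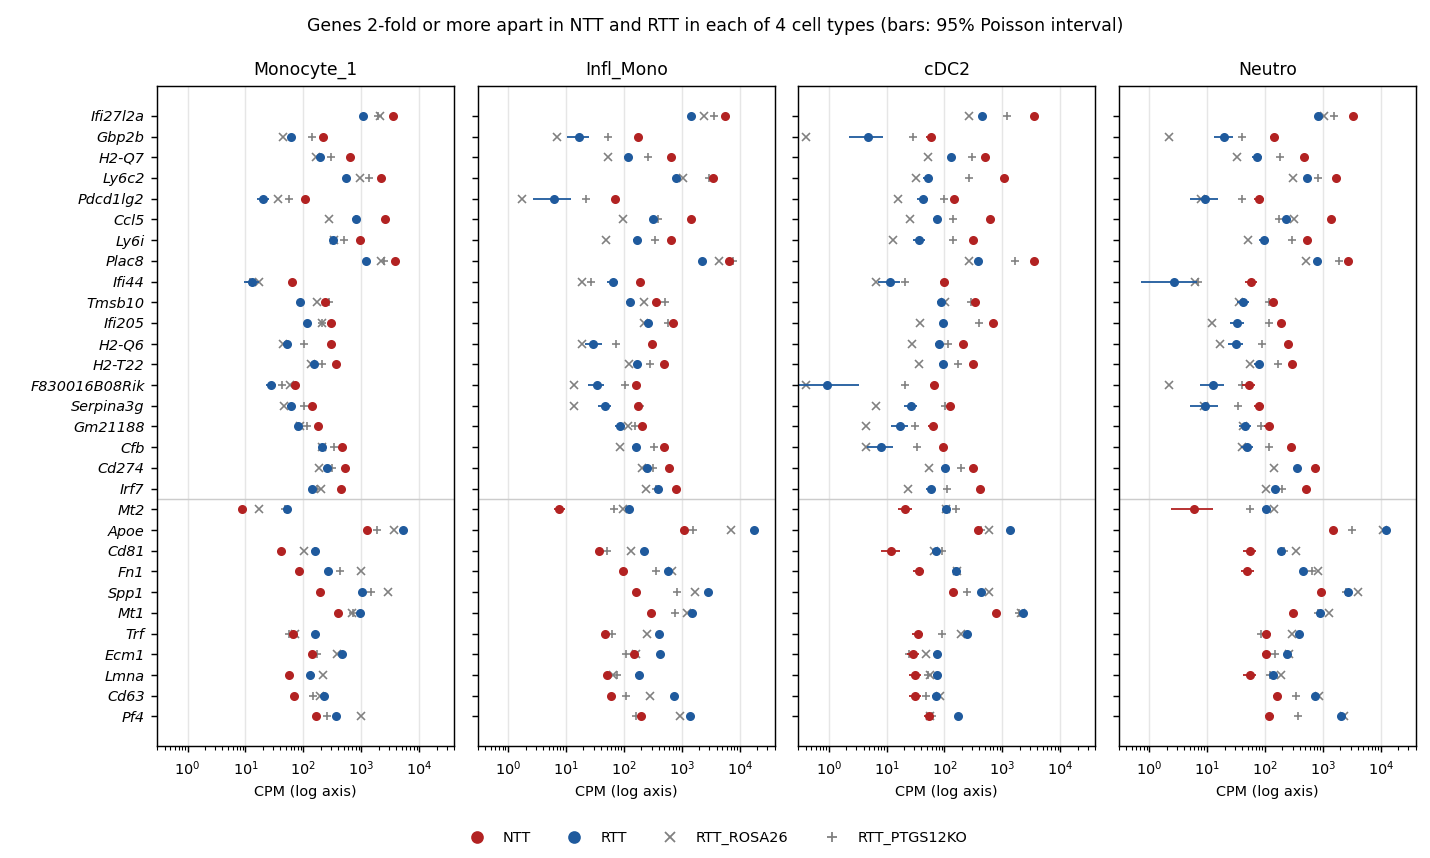
The 19 genes higher and, under the grey line, the 11 genes lower in NTT in every type, with CPM on a log axis in NTT (red), RTT (blue), RTT_ROSA26 (crosses) and RTT_PTGS12KO (plus signs) and bars for 95% Poisson intervals. Values under 0.4 CPM, 0 included, are drawn at the left edge; NTT lies right of RTT for each upper gene and left of it for each lower gene.

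Of the 19 shared higher genes, 4 were on the interferon-stimulated list and 5 on the interferon-gamma-type list, 47.4% together, against 2.68% of the 2012 genes measured in every type. These lists were chosen with earlier results of these data known. Ifi27l2a, an interferon-inducible protein, stood at 3564 CPM (3545 to 3583) in NTT and 1056 (1023 to 1090) in RTT in Monocyte_1, and at 5549 (5507 to 5592) and 1429 (1364 to 1496) in Infl_Mono. In cDC2 it stood at 3580 (3504 to 3657) and 452 (423 to 481), and in Neutro at 3269 (3166 to 3375) and 820 (775 to 867). NTT was thus highest in Infl_Mono and RTT lowest in cDC2, and the log2 ratios were 1.75, 1.95, 2.97 and 1.99. Irf7, the transcription factor that amplifies type I interferon responses, was at 454 CPM (447 to 461) and 139 (127 to 152) in Monocyte_1, 788 (772 to 804) and 391 (357 to 427) in Infl_Mono, 406 (381 to 433) and 57.8 (48.0 to 69.0) in cDC2, and 503 (463 to 545) and 149 (131 to 170) in Neutro. Its log2 ratio was 1.00 in Infl_Mono, at the 2-fold limit, and 1.67, 2.71 and 1.72 in the others. Ifi205, of the DNA-binding Ifi200 family, had log2 ratios of 1.36, 1.39, 2.79 and 2.36, and Ifi44 had 1.98, 1.51, 2.64 and 3.03. The Neutro value of Ifi44 rests on 67 UMIs in NTT and 4 in RTT.

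Ly6c2, which encodes the Ly6C antigen of inflammatory monocytes, was at 2229 CPM (2215 to 2244) in NTT and 539 (515 to 563) in RTT in Monocyte_1 and at 3499 (3465 to 3533) and 791 (743 to 841) in Infl_Mono. In cDC2 it was at 1077 (1036 to 1120) and 51.2 (42.1 to 61.8), and in Neutro at 1683 (1609 to 1759) and 521 (485 to 558). Its log2 ratio of 4.27 in cDC2 was above those of 2.04, 2.14 and 1.68 elsewhere. Plac8, a gene abundant in inflammatory monocytes, had 1.7, 1.53, 3.20 and 1.73 in Monocyte_1, Infl_Mono, cDC2 and Neutro, also highest in cDC2. Ccl5, a chemokine that draws T and NK cells, was at 2545 CPM (2530 to 2561) and 800 (771 to 830) in Monocyte_1 and at 1432 (1410 to 1454) and 316 (286 to 348) in Infl_Mono. It was at 604 (573 to 636) and 75.2 (64.0 to 87.8) in cDC2 and at 1399 (1332 to 1469) and 230 (207 to 256) in Neutro. After thinning each cell to 2000 UMIs, Ccl5 had a UMI in 57.5%, 42.1%, 18.1% and 41.5% of NTT cells in Monocyte_1, Infl_Mono, cDC2 and Neutro (72.0%, 57.6%, 31.2% and 61.3% unthinned) and in 26.6%, 15.9%, 6.36% and 10.3% of RTT cells (43.2%, 22.5%, 21.3% and 26.0% unthinned). NK cells make Ccl5 themselves and gave no background for it. In cDC2 the tenth of NTT cells with the most held 94.0% of its UMIs, and in Neutro 1 RTT cell held 46.7% of the UMIs of RTT. Cfb, complement factor B, had log2 ratios of 1.11, 1.61, 2.95 and 2.44, and Ly6i, a Ly6 family member, had 1.57, 1.92, 2.93 and 2.44.

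The remaining shared higher genes included 3 of the 17 class I and immunoproteasome genes and both ligands of the PD-1 checkpoint. The class I genes H2-Q7, H2-Q6 and H2-T22 were higher in NTT in each type, H2-Q7 by 1.7, 2.39, 1.90 and 2.62 on the log2 scale in Monocyte_1, Infl_Mono, cDC2 and Neutro, H2-Q6 by 2.43, 3.16, 1.33 and 2.80, and H2-T22 by 1.26, 1.49, 1.7 and 1.85. Cd274, which encodes the checkpoint ligand PD-L1, was at 526 CPM (519 to 533) and 253 (237 to 270) in Monocyte_1, 596 (582 to 610) and 248 (222 to 277) in Infl_Mono, 315 (293 to 339) and 101 (88.0 to 115) in cDC2, and 744 (696 to 796) and 363 (333 to 394) in Neutro. Its ratios of 1.04, 1.25, 1.60 and 1.03 lay close to the limit in Monocyte_1 and Neutro. Pdcd1lg2, for the related ligand PD-L2, was at 105 (102 to 108) and 19.8 (15.5 to 25.0) CPM in Monocyte_1, with log2 ratios of 2.15, 2.72, 1.67 and 2.57. The GTPase gene Gbp2b had ratios of 1.72, 3.06, 2.70 and 2.61, the protease inhibitor Serpina3g 1.17, 1.81, 2.08 and 2.56, and the actin-binding Tmsb10 1.38, 1.44, 1.90 and 1.63. Gm21188 and F830016B08Rik were the remaining members. H2-Q6 and H2-Q7, Ly6i and Ly6c2, and Mt1 and Mt2 have near copies in the genome, so reads could be split or lost between copies.

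The shared higher genes kept their side when each of the 3 loads was taken alone, in all 4 types, and 15, 18, 18 and 16 of the 19 were past 2-fold in every load (Monocyte_1, Infl_Mono, cDC2, Neutro). Loads hold cells of the same samples and are no replicates. Against RTT_ROSA26, NTT was past 2-fold for 14, 16, 19 and 19 of them, and RTT_ROSA26 itself was at least 2-fold below RTT for 1, 6, 10 and 5. RTT_PTGS12KO lay between NTT and RTT for 17, 14, 19 and 17 of the 19. When only cells below the median share of macrophage-marker UMIs of their sample and type were kept, 6 genes were higher in every type, of which Ifi27l2a, H2-Q7, Ifi205, H2-T22 and Irf7 were among the 19.

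Of the 11 shared lower genes, Apoe, Cd63 and Cd81 were on the macrophage maturation list and Fn1 and Spp1 on the list of suppressive and Spp1 macrophages. Mt2, a metallothionein, was at 8.83 CPM (7.93 to 9.81) in NTT and 52.9 (45.7 to 60.9) in RTT in Monocyte_1, 7.69 (6.19 to 9.45) and 122 (104 to 143) in Infl_Mono, 20.9 (15.5 to 27.6) and 106 (92.8 to 121) in cDC2, and 6.02 (2.42 to 12.4) and 105 (89.2 to 123) in Neutro. The intervals did not overlap in any type, and the log2 ratios were -2.07, -3.33, -2.10 and -3.32. In Monocyte_1 1 RTT cell held 38.0% of its UMIs. Mt1 was at 402 CPM (395 to 408) and 937 (905 to 969), 298 (288 to 308) and 1515 (1448 to 1584), 785 (750 to 822) and 2305 (2241 to 2371), and 299 (268 to 332) and 905 (858 to 955) over the types as listed above. Its log2 ratios were -1.21, -2.33, -1.55 and -1.58.

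Apoe, the lipid carrier of macrophages, was at 1234 CPM (1223 to 1245) in NTT and 5259 (5184 to 5334) in RTT in Monocyte_1, 1089 (1070 to 1108) and 17616 (17387 to 17848) in Infl_Mono, 383 (358 to 409) and 1327 (1279 to 1377) in cDC2, and 1503 (1433 to 1575) and 12386 (12209 to 12565) in Neutro. Its log2 ratios were -2.09, -4.01, -1.78 and -3.04. In NK cells of RTT it reached 9303 CPM (8911 to 9709), above its level in Monocyte_1 and cDC2 of the same sample. Spp1, the secreted matrix protein osteopontin, was at 195 (191 to 200) and 1028 (995 to 1061) CPM in Monocyte_1 and at 160 (152 to 167) and 2848 (2756 to 2942) in Infl_Mono, with log2 ratios of -2.37, -4.12, -1.57 and -1.54. NK cells held 2162 CPM of Spp1 in NTT and 1715 in RTT, above both monocyte types in NTT. In cDC2 1 RTT cell held 47.4% of the Spp1 UMIs. Fibronectin (Fn1) had ratios of -1.60, -2.48, -1.97 and -3.04, the platelet chemokine Pf4 -1.08, -2.80, -1.61 and -4.06, and transferrin (Trf) -1.19, -2.96, -2.64 and -1.84. The tetraspanins Cd81 (-1.84, -2.41, -2.17 and -1.7) and Cd63 (-1.67, -3.48, -1.08 and -2.17), the nuclear lamin gene Lmna (-1.17, -1.73, -1.12 and -1.28) and the matrix protein gene Ecm1 (-1.68, -1.45, -1.24 and -1.13) made up the rest.

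All of the 11 kept their side in every load, except Pf4 in cDC2, where 1 RTT cell held 49.6% of its UMIs and load 2 alone gave 1.14. Against RTT_ROSA26 the number past 2-fold was 8, 9, 7 and 11 of the 11. RTT_ROSA26 itself was at least 2-fold from RTT on the side of NTT for 2, 4, 2 and 0, and on the far side for 3 in Monocyte_1. As a set, 4 of the 11 were lower in all types against RTT_ROSA26, and 0 among low-macrophage cells, a choice of cells made on macrophage transcripts. In that choice Apoe, Ecm1 and Lmna changed sign in Neutro (0.14, 0.92 and 0.88) and Pf4 in Infl_Mono (0.41). Without cells carrying more marker UMIs of another class, Pf4 changed sign in Monocyte_1 (0.24) and Infl_Mono (1.16). RTT_PTGS12KO lay between NTT and RTT for 6, 9, 7 and 8.

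**Figure D3:**
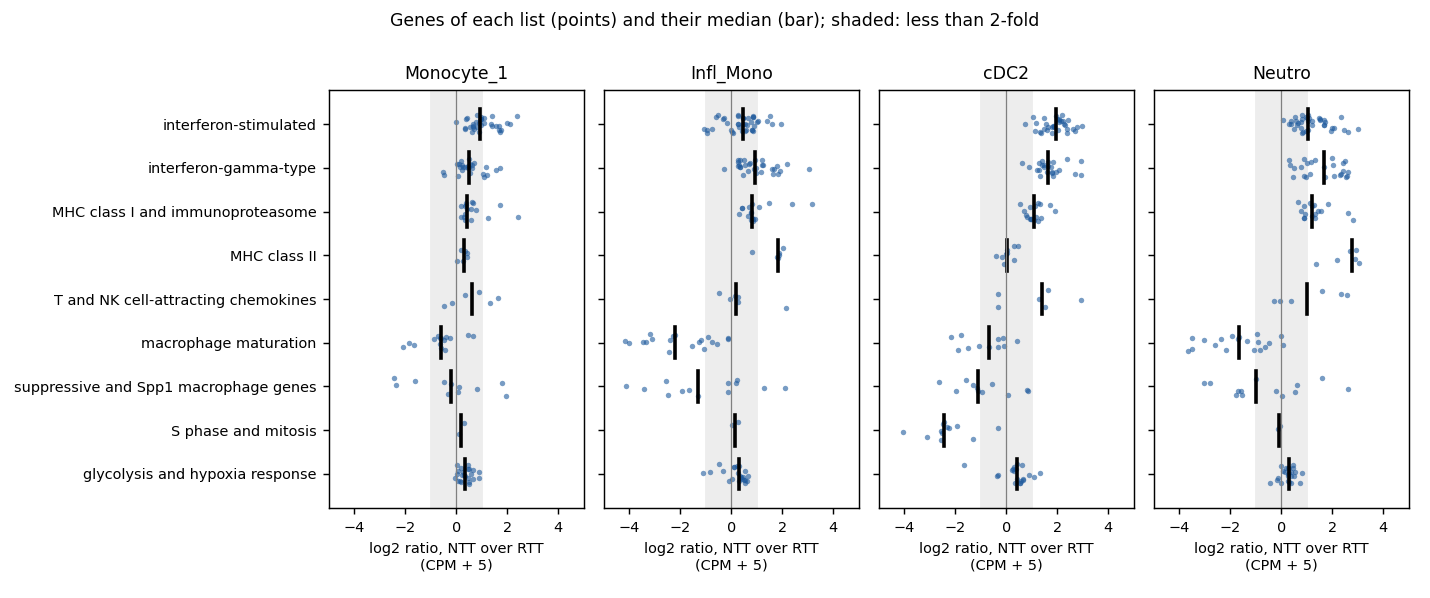
Each point is a gene of the named list, placed by its log2 ratio of CPM + 5 (NTT over RTT), in 1 panel a cell type; black bars are list medians and the shaded band is less than 2-fold. The interferon-stimulated median is 1.97 in cDC2 and 0.47 in Infl_Mono, and the MHC class II median is 2.79 in Neutro and 0.02 in cDC2.

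Interferon-stimulated genes, a list of antiviral and related genes, passed 2-fold as a majority in cDC2 and Neutro and as a minority in both monocyte types. In cDC2 33 of 34 measured members were past 2-fold, with a median log2 ratio of 1.97 against 0.03 over all genes, and in Neutro 21 of 38 with a median of 1.05. In Monocyte_1 13 of 34 were, with a median of 0.94, and in Infl_Mono 6 of 41 were higher and 1 lower, with a median of 0.47. Over all genes 6.12%, 5.64%, 2.97% and 3.49% were higher in cDC2, Neutro, Monocyte_1 and Infl_Mono, and 3.49% were lower in Infl_Mono. Of the members at 50 CPM in both samples, 16 of 16 were higher in cDC2, 10 of 25 in Neutro, 6 of 20 in Monocyte_1 and 6 of 40 in Infl_Mono. Among all such genes these counts were 78 of 2109, 72 of 2040, 38 of 2212 and 53 of 2222. Isg15, a ubiquitin-like modifier, was at 849 CPM (812 to 887) and 153 (137 to 171) in cDC2, 1107 (1047 to 1169) and 628 (589 to 670) in Neutro, 622 (614 to 630) and 190 (176 to 205) in Monocyte_1, and 1883 (1859 to 1908) and 1062 (1006 to 1120) in Infl_Mono. It was past 2-fold in cDC2 and Monocyte_1 (2.43 and 1.69) and not in Neutro or Infl_Mono (0.81 and 0.82). Rsad2, the antiviral enzyme viperin, showed 2.39 in Monocyte_1, 2.38 in cDC2 and 1.10 in Neutro, but -0.77 in Infl_Mono, where it was at 680 (665 to 695) and 1164 (1106 to 1225) CPM. In Infl_Mono Ifit1 (-0.96) and Cmpk2 (-0.94) were also on the RTT side, and Ifit3b (-1.05), chosen after its value was seen, was the member past 2-fold. That type is led by these very genes.

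The same list was set against RTT_ROSA26 as the resistant tumour. NTT was higher for 34 of 34 members in cDC2 and 36 of 38 in Neutro, with medians of 2.95 and 1.64, and for 4 of 34 in Monocyte_1 and 11 of 41 in Infl_Mono, with medians of 0.58 and 0.72. Over all genes, 8.50%, 7.76%, 3.34% and 6.28% were higher in that comparison, in the same order. The monocyte values rest on 54 RTT_ROSA26 cells in Monocyte_1 and 86 in Infl_Mono. RTT_ROSA26 against RTT gave medians of 0.35 in Monocyte_1, -0.26 in Infl_Mono, -0.76 in cDC2 and -0.59 in Neutro. These cover the 23, 41, 16 and 25 members measured in that comparison, so the sets differ from those of NTT. After cells with more marker UMIs of another class than of their own were left out, the count higher was 12 of 35 in Monocyte_1, 23 of 40 in Infl_Mono and 15 of 38 in Neutro, and cDC2 kept 37 NTT cells, too few for a value.

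Interferon-gamma-type genes and antigen presentation differed by type. The interferon-gamma-type list had 22 of 24 members higher in cDC2 (median 1.65), 17 of 25 in Neutro (1.66), 12 of 30 in Infl_Mono (0.92) and 6 of 26 in Monocyte_1 (0.49), against 6.12%, 5.64%, 3.49% and 2.97% of all genes, and 0 lower. Without cells carrying more marker UMIs of another class it had 1 of 27 higher in Monocyte_1 (0.04) and 10 higher and 1 lower of 30 in Infl_Mono (0.52). Among low-macrophage cells, those below the median share of macrophage-marker UMIs, 3 of 27 and 6 of 30 were higher in these types, and against RTT_ROSA26 Infl_Mono had 20 of 30 (1.23). Among 17 class I and immunoproteasome genes, 11 were higher in Neutro, 9 in cDC2, 4 in Infl_Mono and 3 in Monocyte_1, with medians of 1.20, 1.09, 0.80 and 0.44. Against RTT_ROSA26 the counts were 17, 16, 9 and 4. Psmb9, an immunoproteasome subunit, had log2 ratios of 0.57, 0.78, 1.14 and 1.55 in Monocyte_1, Infl_Mono, cDC2 and Neutro, and the peptide transporter Tap1 had 0.63, 0.76, 1.17 and 1.28. H2-K1, a classical class I heavy chain, was at 3547 CPM (3528 to 3565) and 2053 (2007 to 2101) in Monocyte_1, 3439 (3406 to 3473) and 1592 (1524 to 1663) in Infl_Mono, 2670 (2604 to 2736) and 1495 (1443 to 1548) in cDC2, and 2681 (2588 to 2777) and 1235 (1180 to 1293) in Neutro. It passed 2-fold in Infl_Mono and Neutro and not in the other types.

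MHC class II genes, which present antigen to CD4+ T cells, had 6 of 6 members higher in Neutro (median 2.79), 5 of 6 in Infl_Mono (1.84), and 0 of 6 in Monocyte_1 (0.31) and 0 of 9 in cDC2 (0.02). Over all genes 5.64%, 3.49%, 2.97% and 6.12% were higher in Neutro, Infl_Mono, Monocyte_1 and cDC2. H2-Ab1 was at 9459 CPM (9335 to 9584) in NTT and 9325 (9195 to 9455) in RTT in cDC2, and at 7005 (6979 to 7031) and 5262 (5188 to 5337) in Monocyte_1. In Infl_Mono it was at 5541 (5498 to 5583) and 1333 (1271 to 1398), and in Neutro at 4033 (3919 to 4150) and 486 (452 to 523). The types with the highest level in RTT were thus those without a 2-fold difference. NK cells held 618 CPM in NTT and 260 in RTT. Without cells carrying more marker UMIs of another class, the counts were still 5 in Infl_Mono and 6 in Neutro. Against RTT_ROSA26, however, 3 of 6 members were higher in Monocyte_1, with a median of 1.13, beside 3.34% of all genes. RTT_ROSA26 held 54 Monocyte_1 cells.

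Chemokines that draw T and NK cells were mixed. Of 6 measured genes, 2 were higher in Monocyte_1, 1 in Infl_Mono, 4 in cDC2 and 3 in Neutro, beside 2.97%, 3.49%, 6.12% and 5.64% of all genes. Without cells carrying more marker UMIs of another class, 1 was higher in Monocyte_1 and 3 in Infl_Mono. Cxcl9, induced by interferon-gamma, was at 1084 CPM (1074 to 1095) in NTT and 1509 (1469 to 1549) in RTT in Monocyte_1 and at 951 (933 to 968) and 795 (747 to 846) in Infl_Mono, less than 2-fold apart in both. In cDC2 it was at 559 (529 to 590) and 174 (157 to 193), a log2 ratio of 1.65 that ran from -0.03 to 4.33 over the loads. In Neutro it was at 394 (359 to 432) and 73.7 (60.6 to 88.8), a ratio of 2.34. Cxcl10 had 0.34, 0.13, 1.52 and 1.62 in the same order.

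Of the macrophage maturation genes, 14 of 19 measured members were lower in NTT in Infl_Mono (median -2.21), 12 of 19 in Neutro (-1.67), 5 of 11 in cDC2 (-0.66) and 3 of 15 in Monocyte_1 (-0.59), against 3.49%, 3.27%, 4.53% and 0.939% of all genes, and 0 were higher. Of those at 50 CPM in both samples, 8 of 13, 8 of 15, 1 of 7 and 2 of 14 were lower. Mrc1, the mannose receptor, was at 43.8 CPM (40.1 to 47.7) and 444 (408 to 482) in Infl_Mono and 62.7 (49.2 to 78.9) and 411 (379 to 445) in Neutro. Trem2, a lipid receptor, had log2 ratios of -0.65, -1.53, -1.52 and -0.97 in Monocyte_1, Infl_Mono, cDC2 and Neutro, and the complement gene C1qa had -0.59, -0.92, -0.34 and -0.84. NK cells of RTT held 1252 CPM of C1qa and those of NTT 138. After cells with more marker UMIs of another class were left out, 1 of 15 members was lower in Monocyte_1 (median 0.04), 1 of 13 in Infl_Mono (0.15), where 3 were higher, and 7 of 18 in Neutro (-0.57). Among low-macrophage cells Neutro had 6 of 11 higher and 0 lower (median 1.12), in a setting where 513 genes were higher in all, but those cells were chosen on macrophage transcripts and nothing is read from it. Leaving out cells with more marker UMIs of another class kept 1273 of 1616 NTT cells and 67 of 138 RTT cells in Infl_Mono.

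Within Monocyte_1 the largest ratios were those of Lpl, lipoprotein lipase, at 78.4 CPM (75.7 to 81.2) in NTT and 3.58 (1.91 to 6.12) in RTT, and of Ifitm1, an interferon-inducible membrane protein, at 669 (661 to 677) and 5895 (5817 to 5975). Lpl had a log2 ratio of 3.28 here and 3.14 in Infl_Mono, and it was below the minimum in the other types. Ifitm1 was lower in NTT by -3.13 in Monocyte_1 and -2.09 in Infl_Mono, and less than 2-fold apart in cDC2 (-0.57) and Neutro (-0.51). Its direction in both monocyte types was thus opposite to that of Ifi27l2a and Irf7. RTT_ROSA26 stood at 1926 CPM in Monocyte_1 and 603 in Infl_Mono, the latter next to the 607 (593 to 621) of NTT, and RTT_PTGS12KO at 634 and 560. Oasl1 (2.13) and Rsad2 (2.39), both antiviral, were also among the 5 highest ratios, and Chil3, a chitinase-like protein of monocytes, was among the 5 lowest (-2.43). Nos2, inducible nitric oxide synthase, was at 259 (254 to 264) and 111 (100 to 122) CPM, a ratio of 1.19. Tnfaip3, a brake on NF-kB signalling, was the gene higher in this type by at least 1 (log2) beyond every other type, among those measured in all types, with 1.16 against -0.17, -0.14 and -0.13, and it exceeded the nearest type by 1.29 (1.11 to 1.57).

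Within Infl_Mono the lowest ratios belonged to macrophage genes: Fcrls, a scavenger receptor-like gene (-4.19), Spp1 (-4.12), Apoe (-4.01), Cd63 (-3.48) and Ctla2a, a cathepsin inhibitor (-3.41). Fcrls was at 9.64 CPM in NTT and 261 in RTT. Gbp2b (3.06), H2-Q6 (3.16), Lpl (3.14) and Pdcd1lg2 (2.72) were among the highest. Above them stood the haemoglobin gene Hbb-bs (3.87), but 97.1% of its NTT UMIs were in 1 cell. The log2 ratio of Spp1 differed from that in the nearest type by -1.75 (-1.86 to -1.66) and that of Cd63 by -1.31 (-1.65 to -1.11).

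cDC2 differed most by type. Of the 2012 genes measured in all types, 10 were higher and 9 lower in NTT in cDC2 by at least 1 (log2) beyond every other type, against 1 and 1 in Monocyte_1, 0 and 3 in Infl_Mono and 4 and 2 in Neutro. Ly6c2 exceeded its next highest ratio by 2.13 (1.95 to 2.53) and Plac8 by 1.47 (1.34 to 1.62). Both are genes of blood monocytes, whose markers summed to 5300 CPM in NTT and 951 in RTT in this type. That sum includes Ly6c2 and Plac8 themselves, so it is not separate from their ratios. The others included the interferon-inducible genes Rtp4 (2.22), Oasl2 (2.15), Ifi204 (2.07) and Ifi47 (1.84). S100a9, a neutrophil and monocyte protein, was at 73.3 (62.8 to 85.1) and 324 (300 to 349) CPM, but 1 RTT cell held 28.8% of its UMIs, and the neutrophil markers summed to 206 CPM in NTT and 676 in RTT. Its ratio of -2.07 changed sign, to 1.09, without cells holding 3 or more UMIs of cell cycle genes. Cd14, a lipopolysaccharide co-receptor, was at 200 (183 to 219) and 674 (640 to 710) CPM, a ratio of -1.73. Cd209a, a lectin of cDC2s, was at 87.8 (76.2 to 101) and 35.7 (28.1 to 44.7), but ran from -0.34 to 2.88 over the loads.

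Cell cycle genes differed in cDC2. All 20 members of the S phase and mitosis list were at a lower CPM in NTT than in RTT, with sums of 787 CPM (751 to 824) and 3010 (2937 to 3085). Of 12 measured members 11 passed 2-fold, against 4.53% of all genes, but 9 of the 12 reached the minimum in RTT alone and had to differ, and of the 3 that reached it in both samples 2 were lower. Top2a, the topoisomerase of dividing cells, was at 41.8 CPM in NTT and 267 in RTT, Cenpf, a kinetochore protein, at 1.7 (0.465 to 4.37) and 107 (93.7 to 122), and Ube2c, a mitotic ubiquitin ligase enzyme, at 20.0 (14.7 to 26.6) and 213 (194 to 234). Pcna, a replication clamp, was at 91.6 and 116. RTT_ROSA26 stood between NTT and RTT, at 28.1 CPM for Cenpf and 54.3 for Ube2c. After thinning to 2000 UMIs, 7.45% of NTT cells (4.67 to 11.2), 31.8% of RTT cells (24.9 to 39.3) and 12.2% of RTT_ROSA26 cells (8.61 to 16.5) held 3 or more UMIs of the list. Unthinned, the shares were 52.8%, 63.8% and 56.2%. Against RTT_ROSA26, 2 of 7 measured members were lower in NTT in cDC2, with a median of -0.76, beside 3.93% of all genes. In the other types 2 members were measured and 0 passed 2-fold, but against RTT_ROSA26 5 of 7 were lower in Neutro (median -2.27), beside 6.57% of all genes.

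In Neutro the granule and maturation list, which marks the stages of neutrophils, had 0 of 15 members higher and 2 lower, Camp and Ngp. Over all genes 5.64% were higher and 3.27% lower in this type. Camp and Ngp are made by immature neutrophils, and 1 RTT cell held 99.6% of the Camp UMIs and 98.3% of the Ngp UMIs of RTT. Ctsk, a bone-resorbing protease with a ratio of 2.98, had 88.5% of its NTT UMIs in 1 cell. The highest ratios were those of Klrk1, the NKG2D receptor (3.45, at 107 and 5.31 CPM), H2-Ab1 (3.04), Ifi44 (3.03) and Dnase1l3, a nuclease (3.03). NK markers moved with Klrk1, at a sum of 93.7 CPM in NTT and 6.64 in RTT, and their part was not tested. Ly6a, the interferon-inducible Sca-1 antigen, was at 2130 CPM (2047 to 2215) in NTT and 361 (332 to 393) in RTT, a ratio of 2.54 that exceeded the next highest by 1.36 (1.23 to 1.52). The lincRNA AW112010 was at 2956 (2858 to 3057) and 508 (473 to 545), beyond the next type by 1.84 (1.72 to 1.97). H2-Aa exceeded the next by 1.08 (0.96 to 1.22). Pf4 (-4.06), Npl, a sialic acid lyase (-3.66), F13a1, a clotting factor of macrophages (-3.61), and Folr2, a folate receptor of macrophages (-3.52), were lowest beside Camp. Macrophage markers summed to 4926 CPM in NTT and 18504 in RTT in this type, and to 19589 in RTT_ROSA26. The median over cells of the ribosomal share of UMIs was 12.7% in NTT and 6.22% in RTT, opposite in order to the other types, while in the sums ribosomal protein genes took 137109 and 131776 CPM.

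**Figure D4:**
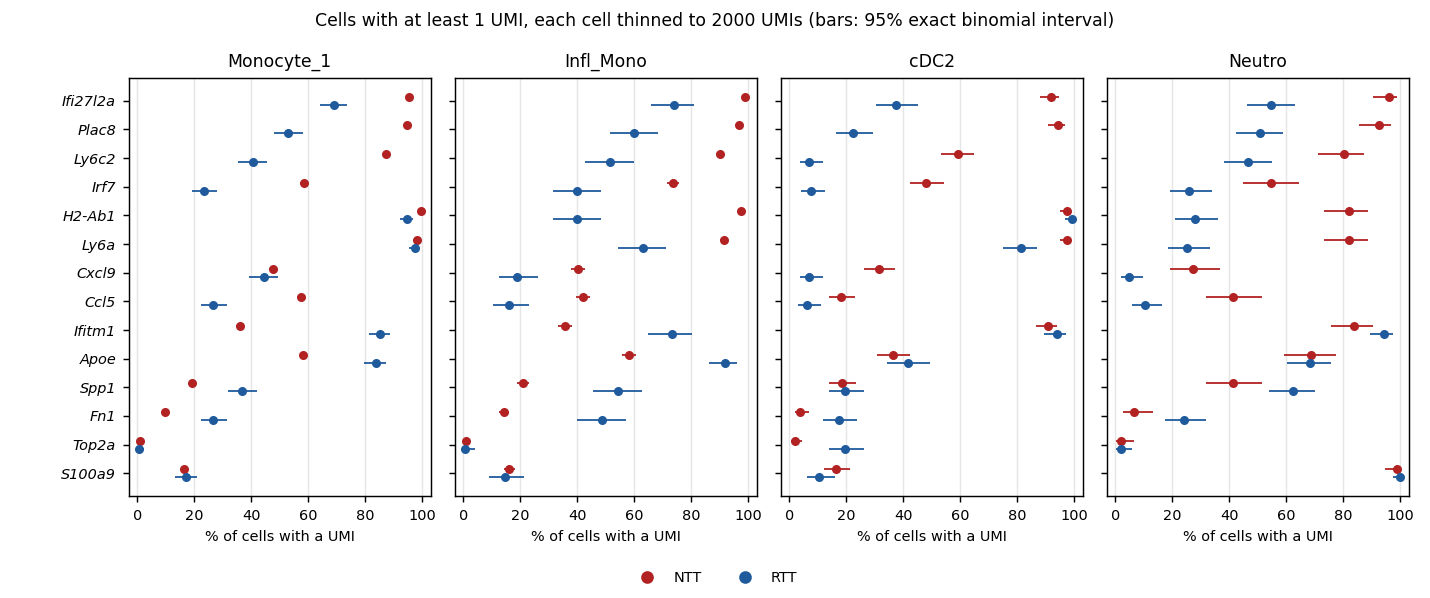
Percentage of cells with at least 1 UMI of each gene after every cell was thinned to 2000 UMIs, in NTT (red) and RTT (blue) by cell type, with 95% exact binomial intervals. H2-Ab1 is at 97.7% and 39.9% in Infl_Mono and at 97.5% and 99.4% in cDC2.

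Shares of cells were compared at 2000 UMIs a cell, which left out 8 and 1 cells of NTT and RTT in Monocyte_1, 1 and 0 in Infl_Mono, 0 and 1 in cDC2 and 0 in Neutro. Plac8 had a UMI in 94.9%, 97.0%, 94.3% and 92.5% of NTT cells in Monocyte_1, Infl_Mono, cDC2 and Neutro and in 53.0%, 60.1%, 22.5% and 50.7% of RTT cells. Unthinned, the Plac8 shares were 98.6%, 98.5%, 97.2% and 99.1% against 69.8%, 70.3%, 40.8% and 72.6%. Irf7 was in 58.4%, 73.6%, 48.2% and 54.7% of NTT and 23.5%, 39.9%, 7.51% and 26.0% of RTT cells. Unthinned, the Irf7 shares were 91.8%, 95.2%, 83.7% and 95.3% against 59.6%, 68.1%, 25.3% and 52.1%. Lymphocytes also express both genes, so no type served as background, and the shares are of cells with a UMI, not of cells that express the gene. H2-Ab1 was in 82.1% of NTT and 28.1% of RTT neutrophils (87.7% and 54.8% unthinned), while NK cells had it in 22.9% of 707 cells in NTT and 8.33% of 12 in RTT (interval 0.211 to 38.5), with median depths of 7669 and 14838 UMIs. The RTT share in Neutro lies inside that interval and is not read as expression.

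Apoe had a UMI in 32.8% of NK cells in NTT and 91.7% (61.5 to 99.8) in RTT, against 58.3%, 58.1%, 36.5% and 68.9% of NTT and 83.8%, 92.0%, 41.6% and 68.5% of RTT cells in Monocyte_1, Infl_Mono, cDC2 and Neutro. Unthinned, the Apoe shares were 87.3%, 87.7%, 72.0% and 93.4% in NTT and 97.1%, 97.8%, 84.5% and 91.1% in RTT. The RTT shares lay inside or under the NK interval and are not read as expression. In cDC2 and Neutro the shares in NTT and RTT were close. The tenth of cells with the most UMIs of Apoe held 66.7% of them in NTT and 80.4% in RTT in cDC2, and 69.2% and 63.3% in Neutro. Spp1 was in 58.8% of NK cells in NTT and 75.0% (42.8 to 94.5) in RTT. Its shares in the 4 types were 19.3%, 20.9%, 18.4% and 41.5% in NTT and 36.8%, 54.3%, 19.7% and 62.3% in RTT. NK cells held 2162 CPM of Spp1 in NTT, above both monocyte types, so they gave no usable background for it. The Spp1 shares are not read as expression. Unthinned, the Spp1 shares were 49.9%, 50.3%, 48.6% and 71.7% in NTT and 71.6%, 73.9%, 62.1% and 84.9% in RTT. Ifitm1 was in 18.2% and 41.7% (15.2 to 72.3) of NK cells.

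Genes of suppressive and Spp1 macrophages went both ways, with 2 higher and 3 lower of 11 in Monocyte_1, 2 and 7 of 13 in Infl_Mono, 0 and 6 of 11 in cDC2 and 2 and 7 of 13 in Neutro, against shares over all genes of at most 6.12% in either direction. Without cells carrying more marker UMIs of another class Infl_Mono had 2 higher and 3 lower of 12 (median 0.06 against -1.31), and among low-macrophage cells Neutro had 4 higher and 1 lower of 11. The higher members were Mmp12, macrophage elastase (1.97, 2.12 and 2.61 in Monocyte_1, Infl_Mono and Neutro), and Inhba, the activin A subunit (1.78, 1.29 and 1.61). Chil3, Fn1 and Spp1 were the lower members in Monocyte_1.

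Monocyte-attracting chemokines were higher for 2 of 6 in Monocyte_1 (Ccl2 1.38 and Ccl7 1.34) and 2 of 4 in cDC2 (Ccl2 2.09 and Ccl12 1.04), while in Infl_Mono 1 was higher and 3 were lower of 7 (Ccl24 2.08, Ccl8 -3.01, Ccl9 -1.40 and Ccl12 -1.16) and in Neutro 2 of 6 were lower (Ccl9 -1.91 and Ccl8 -1.23). In Infl_Mono the list turned round without cells carrying more marker UMIs of another class, with 4 of 6 higher and 0 lower (median 2.00 against -0.58), and among low-macrophage cells, with 3 of 5 higher (1.75). Over all genes 2.97%, 3.49%, 6.12% and 5.64% were higher and 0.939%, 3.49%, 4.53% and 3.27% lower in Monocyte_1, Infl_Mono, cDC2 and Neutro. Of the CXCR2 ligands and platelet-type chemokines, which draw neutrophils, 3 of 3 were lower in cDC2 (Cxcl1 -2.75, Pf4 -1.61 and Cxcl2 -1.40) and 2 of 3 in Infl_Mono, while Monocyte_1 had Cxcl3 higher (1.83) and Pf4 lower of 3 and Neutro had Pf4 lower of 4. In Infl_Mono Ccl12 and Pf4 were on the NTT side without cells carrying more marker UMIs of another class (2.44 and 1.16), as was Pf4 in Monocyte_1 (0.24). Lymphocyte-activating cytokines and costimulators had 0 of 6 past 2-fold in Monocyte_1, 3 higher and 1 lower of 7 in Infl_Mono (Slamf7 1.56, Il15 1.26, Cd40 1.03 and Tnf -1.15), 2 of 6 higher in cDC2 and 2 of 9 higher in Neutro. Those were Cd40, the costimulatory receptor (1.59 and 1.90), and Slamf7, a lymphocyte and myeloid surface receptor (1.50 and 2.49), in both types.

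The remaining lists are given by their counts, beside the shares of 0.939% to 6.12% over all genes. Of 96 ribosomal protein genes, a list added after the data were seen, 81 or 82 were measured and 0 passed 2-fold in any type. Glycolysis and hypoxia genes had 0 of 23 past 2-fold in Monocyte_1, 1 of 23 lower in Infl_Mono, 2 of 20 higher and 1 lower in cDC2, and 0 of 24 in Neutro. Genes that respond to cAMP, the second messenger of prostaglandin E2, had 1 of 13 higher in Monocyte_1 (Dusp1 1.00) and 1 lower in each of the other types, of 13, 13 and 14, which was Thbs1, thrombospondin-1 (-1.24, -1.75 and -1.16). The interleukin-1 system had 1 higher and 1 lower of 7 in Monocyte_1 (Il1a 1.45 and Il1r2 -1.37), 0 of 7 in Infl_Mono, 0 of 5 in cDC2, and 1 higher and 1 lower of 8 in Neutro (Casp1 1.26 and Il1rap -1.47). Lysosome and lipid genes had 2 higher and 1 lower of 17 in Monocyte_1, 1 and 3 of 17 in Infl_Mono, 1 and 0 of 15 in cDC2 and 0 and 2 of 17 in Neutro, with the cholesterol exporter Abca1 at -1.80 in Infl_Mono and -1.57 in Neutro. Immediate-early and heat-shock genes, which also answer to tissue handling, had 2 higher of 21 in Monocyte_1, 1 of 21 in Infl_Mono, 2 higher and 2 lower of 20 in cDC2 and 1 higher of 20 in Neutro. Neutrophil genes in the other types had 1 lower of 5 in Monocyte_1, 3 lower of 7 in Infl_Mono, and 1 higher and 2 lower of 4 in cDC2. Ptgs2, which encodes COX-2, was at 692 CPM (684 to 700) and 371 (352 to 392) in Monocyte_1, a log2 ratio of 0.89, and had 0.03, -0.96 and -0.35 in Infl_Mono, cDC2 and Neutro. Without replicates, these counts do not show that the tumours were alike.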

How the data were processed

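CD45+ cells of the 4 samples were labelled with multiplexing oligos, pooled and loaded 3 times for 3' droplet sequencing. The authors deposited UMI counts of 32285 genes in 33368 cells, not normalized, with each cell's sample and type. The submitters' processing notes name Cell Ranger, Seurat 4.3.0 and mm10. Per the study's methods, the filters on a cell were more than 1000 genes, less than 15% of UMIs mitochondrial and less than 40% ribosomal, and clusters were named by markers after Harmony integration. No doublet caller was run here; oligos remove doublets between samples.

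Counts were summed by sample and type, divided by their total (CPM) and compared as described in the results, using Python 3.11.15 (pandas 2.3.3, numpy 2.4.6, scipy 1.17.1), edgeR 4.0.16 (TMM factors only) in R 4.3.3 and matplotlib 3.10.9. Steps were tested on simulated data. The members, gene lists and rules were chosen with earlier results of these data known. Named genes were the 5 highest and 5 lowest ratios in each type, shared genes, genes whose difference is larger in 1 type, a list of 30 genes and examples of 17 lists. Promoters are RefSeq's, GRCm38.p6. Values of a few genes that enter these counts are not reported here. Alternatives changed the pseudocount, minimum, scaling, loads, depth, cell filters and resistant tumour.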

Additional observations from a re-analysis of the deposited data

Results flagged for a closer look

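Of the genes measured, 3 were past 2-fold in opposite directions in different types, and with 1 sample a group none of these differences was tested. Ccl12, a monocyte-attracting chemokine, had a log2 ratio (NTT over RTT) of -1.16 in Infl_Mono and 1.04 in cDC2, a difference of -2.20. In Infl_Mono 1 RTT cell held 21.5% of its UMIs, and the ratio there was above 0 without cells carrying more marker UMIs of another class (2.44), among low-macrophage cells (1.75) and without cells holding 3 or more cycle UMIs (0.27), so that it was then no longer opposite to cDC2. Fcgrt, the neonatal Fc receptor, had -2.02 in Infl_Mono, 1.04 in cDC2 and -2.09 in Neutro, which are differences of -3.07 (Infl_Mono against cDC2) and 3.13 (cDC2 against Neutro). It was at 173 CPM in NTT and 81.3 in RTT in cDC2, and at 22.5 and 107 in Infl_Mono. Saa3, an acute-phase protein, had 1.01 in Monocyte_1, -1.12 in Infl_Mono and -1.36 in Neutro, which are differences of 2.14 and 2.37. In Monocyte_1 1 RTT cell held 24.8% of its UMIs, and in Neutro its ratio ran from -4.49 to 1.89 over the loads. Fcgrt and Saa3 were chosen after their values were seen.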

How the results depend on the processing

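No paired analysis was possible because there was a single sample in every group. Depth limits low genes most, and the small sums of Neutro limit that type. Of 3062 values of 197 gene and type pairs under alternatives, 1898 stayed within their counting interval, 1149 left it with the same sign and 15 changed sign. Of the counts under alternatives 187 stayed within 1.5 times and 41 did not, and the cause was not tested beyond what each alternative changes. The cells kept were too few for a value in cDC2 without cells carrying more marker UMIs of another class, and in Neutro without cells holding 3 or more cycle UMIs. That limit, 50 cells, was not applied to single loads, which held as few as 30 cells (Neutro of NTT, load 3). The choices of the low-macrophage cells (below the median share of macrophage-marker UMIs) and of leaving out cells holding 3 or more cycle UMIs, which were 44.4% to 84.2% of the cells of a sample and type without thinning and 5.48% to 32.2% after it, so that the rule depends on depth, were made after seeing the data.

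A minimum of 200 CPM, which tests fewer genes, gave 28 higher and 12 lower genes in Monocyte_1, 40 and 40 in Infl_Mono, 67 and 25 in cDC2 and 59 and 39 in Neutro, with 10 higher and 3 lower in all types and 4, 15 and 9 interferon-stimulated genes higher in Monocyte_1, cDC2 and Neutro. A minimum of 20 CPM gave 155 lower genes in Infl_Mono, 255 in cDC2 and 162 in Neutro, and 226 higher in Neutro. A pseudocount of 20 CPM gave 50 higher in Monocyte_1 and 81 lower in cDC2. RTT_ROSA26 as the resistant tumour gave 51 lower in Monocyte_1, 168 higher in Infl_Mono, 181 lower in Neutro, 5 lower in all types, and 4, 11 and 36 interferon-stimulated genes higher in Monocyte_1, Infl_Mono and Neutro. Load 1 alone gave 266 higher in Neutro, load 2 gave 222 lower in cDC2 and 139 lower in Neutro, and load 3 gave 235 lower in Neutro and 5 lower in all types. Cells thinned to 2000 UMIs gave 183 lower in Neutro. Without cells carrying more marker UMIs of another class, Infl_Mono had 162 higher, with 23 interferon-stimulated genes. The low-macrophage cells gave 193 lower in cDC2, 513 higher and 139 lower in Neutro, 20 and 13 interferon-stimulated genes higher in Infl_Mono and Neutro, and 6 higher and 1 lower in all types.

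Among these gene and type pairs, log2 ratios that changed sign among low-macrophage cells were Apoe 0.14, Ecm1 0.92 and Lmna 0.88 in Neutro and Ccl12 1.75 and Pf4 0.41 in Infl_Mono. Without cells carrying more marker UMIs of another class, Infl_Mono gave Ccl12 2.44 and Pf4 1.16, and Monocyte_1 gave Pf4 0.24. Against RTT_ROSA26, Ifitm1 was 0.01 in Infl_Mono and Chil3 0.36 in Neutro. Single loads gave Ctsk -0.04 in Neutro (load 2), Cxcl9 -0.03 in cDC2 (load 1) and Pf4 1.14 in cDC2 (load 2), and outside these pairs Cd209a in cDC2 and Saa3 in Neutro also changed sign over the loads. Without cells holding 3 or more cycle UMIs, Ccl12 was 0.27 in Infl_Mono and S100a9 1.09 in cDC2.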
